A study of Mus musculus with 8 samples.

Results

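H was compared with V among the RNA-seq libraries of mouse neural stem cells whose codes begin with G: GH1 and GH2 against GV1 and GV2, which are 4 of the 8 libraries of the study. The cells came from the subventricular zone, the layer beside the lateral ventricle where stem cells persist in the adult brain. The study compared 2 genotypes, a control labelled WT and an S1PR1-deficient one labelled with a deletion of S1pr1, and gave cells of each a high-density lipoprotein (HDL) marked ApoM- or ApoM+. The labels put 2 samples in each combination. Libraries coded C were read as control by their first letter, and G was taken as S1PR1-deficient by elimination. Which of H and V stands for ApoM- and which for ApoM+ is not given in the sources used here, so H and V are reported by letter. The labels also do not give the dose, the duration, the age or strain of the mice, or how the deletion was made, and they do not say whether replicates came from separate cultures. P-values therefore measure only the spread between these samples, which may be technical.

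S1PR1 is a G-protein-coupled receptor for sphingosine-1-phosphate (S1P), a signalling lipid. In blood, S1P travels mostly on HDL, bound to apolipoprotein M (ApoM), and HDL also delivers cholesterol and other lipids to cells. S1PR1 signals through the Gi family of G proteins and takes part in cell migration and survival.

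The S1pr1 count did not separate the libraries coded G from those coded C. S1pr1 (gene ID 13609, chr3:115710433-115715055, build GRCm38) stood at 23.2 and 21.2 CPM, the counts scaled to library size, in GH1 and GH2 and at 22.2 and 22.4 CPM in GV1 and GV2. In the C libraries it stood at 25.4 and 23.2 CPM in CH1 and CH2 and at 20.7 and 16.0 CPM in CV1 and CV2, without overlap (log2 fold change of CH over CV 0.40, adjusted p = 0.036). The log2 difference of GH from CH was -0.13 (adjusted p = 0.711), and that of GV from CV was 0.28 (adjusted p = 0.089). The level in the G libraries was thus within the range of the C libraries, and a gene-level count does not show which exons the reads cover. The genotype given to the G libraries goes against this count, so they are called the libraries coded G throughout.

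The libraries held 39619305 to 45698186 counts. Of 45777 genes in the table, 17644 had enough counts to be tested. All 19 neural stem cell and radial glia markers examined were above 0.5 CPM in a G library, and their summed level was 5599 to 5998 CPM over the 4 G libraries. Of 15 microglia markers, 11 were at 0 in all 4 G libraries, and the summed level of 15 endothelial markers was 6.71 to 8.06 CPM. Mature neuron markers summed to 81.5 and 78.8 CPM in the GH libraries and 87.4 and 85.7 CPM in the GV libraries.

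GH and GV differed at 343 genes, 1.94% of those tested, by edgeR's quasi-likelihood test at a Benjamini-Hochberg adjusted p under 0.05. The 302 genes higher in GH were 1.71% of those tested and the 41 higher in GV were 0.232%. Differences were small: the median log2 fold change of GH over GV across all genes tested was 0.00, and 335 of the genes called were within 1 log2 unit of 0. The genes higher in GH were 251 protein-coding genes, 34 pseudogenes, 10 long noncoding RNAs and 7 small noncoding RNAs of the scaRNA, snoRNA, snRNA and scRNA classes. They included ribosomal proteins, subunits of the respiratory chain, spliceosomal Sm proteins and histones. The genes higher in GV included adhesion molecules and channels of neurons and 3 mitochondrially encoded subunits of complex I. The number of calls moved with each G library. Without GH1 8 genes were called, without GH2 3, without GV1 11 and without GV2 877.

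Apart from noncoding genes at 0 in GV, small structured RNAs were among the largest differences upward, so 3 of them are shown whole as the annotation gives them. In Snora73a and Scarna13 the capitals mark the ACA box near the 3′ end that names the H/ACA class of guide RNAs, and in Bc1 they mark the longest run of A.
Snora73a: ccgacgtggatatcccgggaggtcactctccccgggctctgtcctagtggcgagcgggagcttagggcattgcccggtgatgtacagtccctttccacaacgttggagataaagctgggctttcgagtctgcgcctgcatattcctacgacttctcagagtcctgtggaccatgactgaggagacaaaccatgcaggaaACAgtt
Scarna13: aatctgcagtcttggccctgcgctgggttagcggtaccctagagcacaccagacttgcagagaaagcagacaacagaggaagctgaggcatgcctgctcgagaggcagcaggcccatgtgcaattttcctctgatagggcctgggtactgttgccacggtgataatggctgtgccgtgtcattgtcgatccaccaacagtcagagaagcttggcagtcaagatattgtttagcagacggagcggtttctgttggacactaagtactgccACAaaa
Bc1: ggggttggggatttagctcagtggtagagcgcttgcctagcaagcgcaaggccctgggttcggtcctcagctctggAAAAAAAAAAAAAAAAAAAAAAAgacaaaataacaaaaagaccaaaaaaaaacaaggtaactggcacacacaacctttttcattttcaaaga
Scarna13 (chr12:105031075-105031349, minus strand, build GRCm38) is a guide RNA of the Cajal body, where spliceosomal RNAs are modified. It stood at 42.6 and 41.1 CPM in GH1 and GH2 and at 18.9 and 23.2 CPM in GV1 and GV2. The libraries did not overlap, and the log2 fold change was 0.99 ± 0.10 (SE; adjusted p = 0.000695). The C libraries held 49.4 to 55.0 CPM, so the GV libraries were the low ones. Snora73a (chr4:132352775-132352979, minus strand), a snoRNA that acts in ribosomal RNA processing, stood at 6.47 and 9.36 CPM in GH and 2.18 and 2.69 CPM in GV. Its log2 fold change was 1.70 ± 0.23 (SE; adjusted p = 0.00426), the largest among named genes higher in GH apart from 1 gene at 0 in GV. Both RNAs lie inside noncoding host genes, Snhg10 and Snhg3, whose own fold changes were 0.40 (adjusted p = 0.55) and 0.18 (adjusted p = 0.639) on the log2 scale, and reads of host and guide could be shared.

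Bc1 (chr7:144914470-144914637, plus strand), a dendritic RNA that represses translation, stood at 14.3 and 14.4 CPM in GH and 10.04 and 7.55 CPM in GV. Its log2 fold change was 0.71 ± 0.13 (SE; adjusted p = 0.015). All 4 G libraries were below the 28.1 to 33.3 CPM of the C libraries. Rn7sk, the 7SK RNA that holds the elongation factor P-TEFb inactive, stood at 4978 and 4397 CPM in GH and 2346 and 3094 CPM in GV (log2 fold change 0.79 ± 0.14, SE; adjusted p = 0.0386). Rn7sk did not pass with the 4 G libraries alone or with limma. Nor did it pass without a filter on low counts or with at least 1 CPM in 4 libraries required. Rn7s1 and Rn7s2, near-identical copies of the RNA of the signal recognition particle, took 2.39% and 2.47% of all counts in GH1 and GH2 and 1.49% and 1.64% in GV1 and GV2. In the C libraries they took 3.13% to 3.71%. Reads cannot be told apart between these copies, and both had a log2 fold change of 0.68 (adjusted p = 0.0035). Over whole classes the differences were mostly not past the threshold. Of 172 snoRNAs 2 were higher in GH, of 15 small Cajal body RNAs 2 and of 44 small nuclear RNAs 1, and none was higher in GV. Of all genes tested 1.71% were higher in GH and 0.232% higher in GV, so the snoRNA and small nuclear RNA counts were near that background. The median log2 fold changes of the classes, in the same order, were 0.22, 0.35 and 0.71. When each library's trend with transcript length was removed, an alternative described with the lengths, these medians became -0.21, -0.03 and 0.31 with 1, 1 and 0 calls, and Rn7s1 and Rn7s2 (0.32 each) no longer passed.

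Cytosolic ribosomal proteins, which form the ribosome with ribosomal RNA, were the gene group with the most calls. This list was added after the values were seen. Of 83 tested, 63 were higher in GH and 0 higher in GV, against 1.71% and 0.232% of all genes. All 83 had a fold change above 0, with a median of 0.36 on the log2 scale. Summed over the list, the level was 63490 and 60030 CPM in GH1 and GH2 and 46900 and 52020 CPM in GV1 and GV2. The C libraries held 62890 to 68670 CPM, so the GV libraries stood below all other libraries. The count was 0 without GH1 or GH2, 3 without GV1 and 78 without GV2.

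Rpl41, a very small protein of the large subunit, stood at 1076 and 1052 CPM in GH and 752 and 789 CPM in GV. The difference was 0.47 ± 0.06 on the log2 scale (SE; adjusted p = 0.0035). Rps29, of the small subunit, stood at 592 and 583 CPM in GH and 430 and 396 CPM in GV (log2 fold change 0.51 ± 0.07, SE; adjusted p = 0.00426). Rplp2, an acidic protein of the ribosomal stalk, stood at 354 and 377 CPM in GH and 247 and 274 CPM in GV (log2 fold change 0.49 ± 0.06, SE; adjusted p = 0.00356). Rps10 gave 0.44 ± 0.06 (SE; adjusted p = 0.0046). In none of these 4 did the GH and GV libraries overlap, and the C libraries were nearer to GH than to GV. Pseudogene copies of such genes, Rps16-ps2 and Rps10-ps2, were among the largest differences (0.85 and 0.62), and reads may be shared between a pseudogene and its parent.

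Many genes of the translation machinery begin at a run of pyrimidines, so windows of 50 bases around the annotated starts of Rpl41, Rplp2 and Rps10, from 30 before the start, are shown from RefSeq (GRCm38.p6). Capitals mark CTTTC or CTTTT where it was found between 10 bases before and 15 bases after the start.
Rpl41: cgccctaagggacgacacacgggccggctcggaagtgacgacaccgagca
Rplp2: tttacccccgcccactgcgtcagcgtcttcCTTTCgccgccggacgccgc
Rps10: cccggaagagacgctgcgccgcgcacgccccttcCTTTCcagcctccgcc
The windows lie at chr10:128549149-128549198 on the minus strand, chr7:141447621-141447670 on the plus strand and chr17:27635225-27635274 on the minus strand. Of 4 ribosomal protein genes named here, Rps29 was not matched. CTTTC or CTTTT stood on the gene's strand in 24.7% of 77 windows of 25 bases at ribosomal protein starts (65 genes) and in 5.53% of 32851 windows at all starts. On the other strand the shares were 3.9% and 5.15%. At starts of the other genes higher in GH the share was 7.84% of 204 windows, and at those higher in GV 5.71% of 35 windows. The Rpl41 window holds no match, which says only that these letters are not in this window.

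Respiratory chain genes split by genome. Of 82 nuclear-encoded subunits of the respiratory chain and ATP synthase tested, 29 were higher in GH (1.71% of all genes were) and 0 higher in GV, with a median log2 fold change of 0.28. The count was 0 without GH1, GH2 or GV1 and 54 without GV2. Atp5g1, a subunit of the ATP synthase membrane ring, stood at 298 and 297 CPM in GH and 217 and 237 CPM in GV (log2 fold change 0.39 ± 0.06, SE; adjusted p = 0.01). Ndufa2, an accessory subunit of complex I, stood at 178 and 185 CPM in GH and 125 and 145 CPM in GV (log2 fold change 0.43 ± 0.07, SE; adjusted p = 0.01). Mitochondrial genes went the other way: of 13 mitochondrially encoded proteins, 3 were higher in GV (0.232% of all genes were) and 0 higher in GH, with a median of -0.33. None was called without GH1, GH2 or GV1. ND4, a core subunit of complex I, stood at 151 and 137 CPM in GH and 210 and 203 CPM in GV (log2 fold change -0.52 ± 0.10, SE; adjusted p = 0.0194). ND2 and ND5, of the same complex, gave -0.57 (adjusted p = 0.0263) and -0.40 (adjusted p = 0.018). The C libraries overlapped the GH libraries for ND4, at 139 to 194 CPM. Both lists were added after the values were seen.

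Fewer members of other complexes passed, again against 1.71% of all genes. Among 25 Sm and LSm proteins, which bind spliceosomal and other small RNAs, 7 were higher in GH, led by Snrpf at 99.5 and 86.9 CPM in GH against 59.5 and 68.6 CPM in GV (log2 fold change 0.54 ± 0.08, SE; adjusted p = 0.00836). Of 78 mitochondrial ribosomal proteins 6 were higher in GH, and of 37 proteasome subunits 2. With the length trend removed these counts were 2, 0 and 0, and all 3 were 0 without GH1, GH2 or GV1. Proteasome calls were also 0 with the 4 G libraries alone. Nop10, a protein of the H/ACA particle that carries RNAs such as the guide RNAs shown above, stood at 111 and 109 CPM in GH and 79.4 and 78.8 CPM in GV (log2 fold change 0.48 ± 0.06, SE; adjusted p = 0.00356). It is named for that role and was chosen after its values were seen.

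Replication-dependent histones, whose messages lack poly(A) tails and are made in S phase, were all higher in GH by fold change. Of 23 tested, 5 passed the threshold, against 1.71% of all genes and 17.2% of protein-coding genes under 1000 nt. The median length of the histone list was 630 nt, so the second share is the nearer background. The median log2 fold change of the histones was 0.45. The count was 0 with the 4 G libraries alone and 0 without GH1, GH2 or GV1, and 22 without GV2, while the median ranged from 0.24 without GV1 to 0.71 without GV2. H2bc18 stood at 568 and 524 CPM in GH and 325 and 419 CPM in GV (log2 fold change 0.55 ± 0.09, SE; adjusted p = 0.0148). The others past the threshold were H2bc4 (0.45), H2ac18 (0.42), H1f1 (0.40) and H1f5 (0.30). The summed level was 9306 and 8038 CPM in GH and 5769 and 7430 CPM in GV. Genes of S phase and of G2 and mitosis had medians of 0.05 and -0.01. In each list 0 of 25 passed, against 1.94% of all genes. These genes are longer than the histones, with median lengths of 3006 and 3146 nt. Pcna, the replication clamp, stood at 401 and 393 CPM in GH and 333 and 399 CPM in GV, and Mki67, a marker of cycling cells, at 681 and 671 CPM in GH and 809 and 700 CPM in GV. Neither passed the test (adjusted p = 0.509 and 0.274). Fewer cells in a phase and less RNA per cell cannot be told apart in bulk samples.

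**Figure D1:**
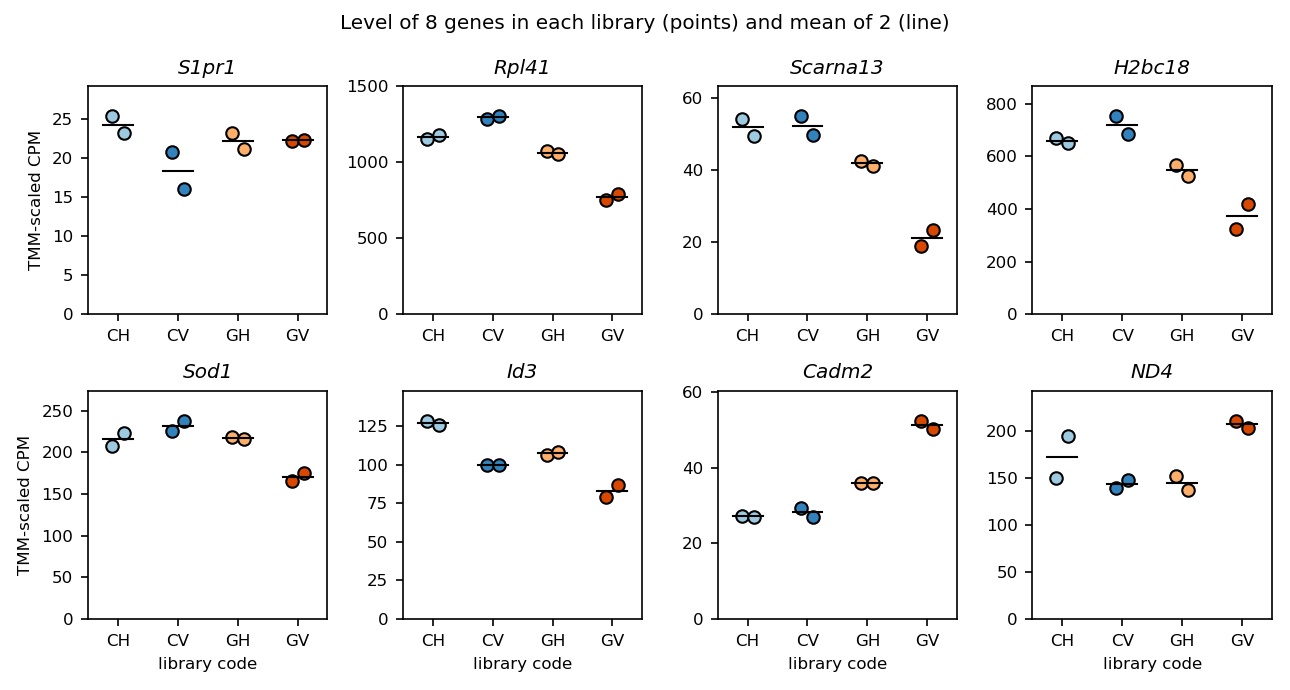
TMM-scaled CPM (vertical axis, from 0) of 8 genes in each of the 8 libraries, grouped by code on the horizontal axis, with points for libraries and a line for the mean of 2. S1pr1 overlaps between GH and GV, while Rpl41, Scarna13, H2bc18, Sod1 and Id3 are lower and Cadm2 and ND4 higher in both GV libraries than in both GH libraries.

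The genes higher in GV held several surface proteins of neurons. In a list added after the values were seen, of families that join neurons to each other or guide their axons, 7 of 27 were higher in GV (0.232% of all genes were) and 0 higher in GH, with a median of -0.27. The count was 2 with the length trend removed and 0 without GH1, GH2 or GV1. Cadm2 (chr16), a synaptic adhesion molecule, stood at 36.0 and 35.9 CPM in GH and 52.4 and 50.2 CPM in GV (log2 fold change -0.51 ± 0.07, SE; adjusted p = 0.00687). The C libraries held 27.0 to 29.4 CPM, below all 4 G libraries. Negr1, of the IgLON family, stood at 28.0 and 26.7 CPM in GH and 37.8 and 36.2 CPM in GV (log2 fold change -0.44 ± 0.08, SE; adjusted p = 0.0149). Lrrc4c, a ligand of netrin-G1, stood at 60.8 and 61.2 CPM in GH and 87.4 and 74.1 CPM in GV (log2 fold change -0.41 ± 0.08, SE; adjusted p = 0.0272). The other 4 were Flrt2 (-0.46), Epha5 (-0.34), Cntn1 (-0.28) and Lsamp (-0.27).

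Beyond that list, Kcnq3, a subunit of the M-type potassium channel, stood at 21.1 and 23.1 CPM in GH and 35.4 and 29.0 CPM in GV (log2 fold change -0.55 ± 0.11, SE; adjusted p = 0.0267). Syn3, a synaptic vesicle protein, gave -0.58, and Neto1, an auxiliary subunit of glutamate receptors, gave -0.41. Pde5a, a phosphodiesterase of cyclic GMP, gave -0.62, and Hlf, a transcription factor of the PAR bZIP family, gave -0.39. CH was also below CV for Kcnq3 (-0.83, adjusted p = 0.000823) and Hlf (-0.32, adjusted p = 0.0344). Syn3 (-0.24), Neto1 (-0.29) and Pde5a (-0.36) differed the same way in C without passing. For none of these genes was the C difference shown to differ from the G difference. Slc1a2, the main glutamate transporter of astrocytes, stood at 143 and 139 CPM in GH and 187 and 169 CPM in GV (log2 fold change -0.34 ± 0.06, SE; adjusted p = 0.0162). It was the 1 gene of 17 mature astrocyte genes tested that passed. Mapt, which encodes the microtubule protein tau, gave -0.29 ± 0.07 (SE; adjusted p = 0.0384), and a larger difference the same way between CH and CV (-0.67). Mature neuron markers did not pass in either direction (0 of 8 tested), with a median of -0.17. Of 15 neuroblast and interneuron genes 0 passed, with a median of -0.15. Since 1.94% of all genes were called, counts of 0 or 1 in lists of this size are ordinary. Summed levels of the neuroblast list were 1657 and 1649 CPM in GH and 1931 and 1763 CPM in GV. The part of such cells in the result was not tested.

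The largest single difference downward was Nptxr, the neuronal pentraxin receptor (chr15:79786351-79804709), at 0.599 and 0.25 CPM in GH and 5.52 and 9.67 CPM in GV, with 25 and 10 counts in GH against 250 and 406 in GV. Its log2 fold change was -4.14 ± 0.44 (SE; adjusted p = 0.0053). It lies wholly within Npcd, which has the same lower coordinate and stood at 375 and 432 counts in GH against 185 and 106 in GV. Reads may thus have been divided between these genes in different ways in different libraries. Gm14230, a noncoding RNA on chromosome 2, had 88 and 116 counts in GH and 0 in both GV libraries. Against a floor of 3 counts per library it was at least 36.4-fold higher in GH. It has the same lower coordinate as LOC115486128, at 75 and 43 counts in GH and 201 and 136 in GV, so the same limit holds. The last gene was chosen after its values were seen.

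Some regulators and stress genes passed singly. Id3, an inhibitor of differentiation factors induced by BMP, stood at 106 and 108 CPM in GH and 79.2 and 86.6 CPM in GV (log2 fold change 0.37 ± 0.06, SE; adjusted p = 0.01). Bmpr1b, a BMP receptor, stood at 59.2 and 58.5 CPM in GH and 70.5 and 73.4 CPM in GV (log2 fold change -0.29 ± 0.06, SE; adjusted p = 0.0384). The C libraries differed in the same directions for both, by 0.35 (adjusted p = 0.00275) and -0.36 (adjusted p = 0.00392). Id3 and Bmpr1b were the only members to pass among 14 genes tested of the BMP and Id list, against 1.94% of all genes. Neither passed with the length trend removed, and Bmpr1b also did not pass with scaling from long protein-coding genes. Of 22 genes of the NRF2 and oxidative stress list, 3 were higher in GH, against 1.71% of all genes: Sod1, which removes superoxide (0.35), Gpx4, which reduces lipid peroxides (0.36), and Gpx1 (0.30). The count was 1 with upper-quartile scaling, 0 with the length trend removed, 0 without GH1, GH2 or GV1 and 6 without GV2. Cdkn2a, a cell cycle inhibitor and 1 of 17 genes in its list, gave 0.39, and Manf, a secreted factor of endoplasmic reticulum stress and 1 of 25, gave 0.25. Etv1, a transcription factor downstream of ERK and 1 of 29, gave -0.24, and Itgb8, an integrin subunit and 1 of 22, gave -0.25. These 4 genes were the only members of their lists to pass. As 1.94% of all genes were called, 1 call in lists of this size is ordinary. All 4 lost the threshold with the 4 G libraries alone and with the length trend removed.

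Genes of the lipid and S1P pathways did not pass. Of all genes tested 1.94% did, so 0 calls in lists of this size are ordinary. Of the S1P receptors, S1pr2 stood at 6.66 and 8.81 CPM in GH and 6.57 and 7.83 CPM in GV, and S1pr3 at 0.24 and 0.125 CPM in GH and 0.11 and 0.238 CPM in GV. The log2 fold change of S1pr1 was -0.0048, with a 95% interval from -0.25 to 0.24. None of 17 genes of S1P metabolism and transport, 14 of lipoprotein uptake, 25 of cholesterol synthesis, 15 of LXR targets and cholesterol efflux and 29 of fatty acid metabolism was called, and their medians lay between -0.05 and 0.01. Hmgcs1, an enzyme of cholesterol synthesis, stood at 1274 and 1228 CPM in GH and 1292 and 1349 CPM in GV (log2 fold change -0.08 ± 0.06, SE; adjusted p = 0.603). Scd1 and Scd2, fatty acid desaturases and LXR targets, gave -0.02 and 0.00. With the length trend removed, 1 of the 25 cholesterol synthesis genes was called, Stard4, higher in GV (-0.33, against -0.16 without the removal).

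Nor did any gene pass among 19 stem cell and radial glia genes, 12 of the oligodendrocyte lineage, 10 ependymal genes, 17 of the Notch pathway, 19 YAP and SRF targets, 14 interferon-stimulated genes, 15 of the NF-kB list, 23 of glycolysis and 19 G protein genes. The same held for the 3 microglia, 9 endothelial and 5 pericyte and fibroblast markers that were tested. With 1.94% of all genes called, 0 is the ordinary count for lists this small. The ependymal genes had a median log2 fold change of 0.51, with single genes from -1.41 to 1.32. Their levels were low: of 15 listed, 7 were under 0.5 CPM in all 4 G libraries. With at least 1 CPM in 4 libraries required, 4 ependymal genes stayed and their median was 0.16. Medians of the lists from stem cell to G protein genes, ependymal apart, lay between -0.08 and 0.06. Fabp7, a fatty acid binding protein of radial glia, stood at 1714 and 1590 CPM in GH and 1252 and 1505 CPM in GV, without overlap but short of the threshold (log2 fold change 0.26 ± 0.08, SE; adjusted p = 0.114). Across all genes tested, both GH libraries stood above both GV libraries at 25.1% and below both at 22.3%, so a lack of overlap alone is common here.

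**Figure D2:**
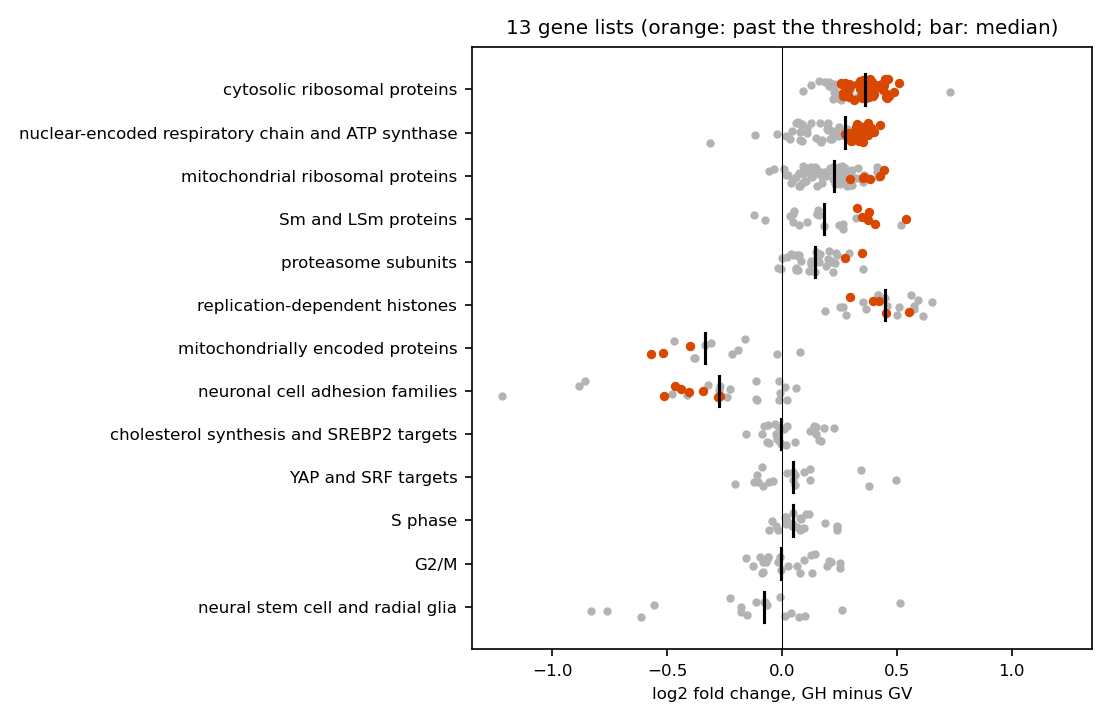
Log2 fold change of GH over GV (horizontal axis) for the tested members of 13 gene lists (rows), with orange points past an adjusted p of 0.05, grey points not past it and a black bar at each list's median. Ribosomal proteins (median 0.36) and histones (0.45) lie to the right, mitochondrially encoded proteins (-0.33) and neuronal adhesion families (-0.27) to the left, and cholesterol, S phase and G2/M genes around 0.

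Fold changes moved with transcript length. The median length of the genes higher in GH was 740 nt and of those higher in GV 4048 nt, against 2466 nt over all genes tested with a length. Among protein-coding genes the median log2 fold change was 0.33 under 600 nt, 0.11 between 1000 and 1500 nt and -0.09 from 8000 nt. Of 1062 protein-coding genes under 1000 nt, 183 (17.2%) were higher in GH and 0 higher in GV. Of 9308 genes of 2000 nt or longer, 17 were higher in GH and 32 higher in GV. Between CH and CV the median under 600 nt was -0.13. Ribosomal proteins (median 744 nt), nuclear respiratory subunits (737 nt) and histones (630 nt) are short. For their counts of calls, 17.2% is thus a nearer background than 1.71%. Mitochondrially encoded proteins are also short (784 nt) and went the other way.

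**Figure D3:**
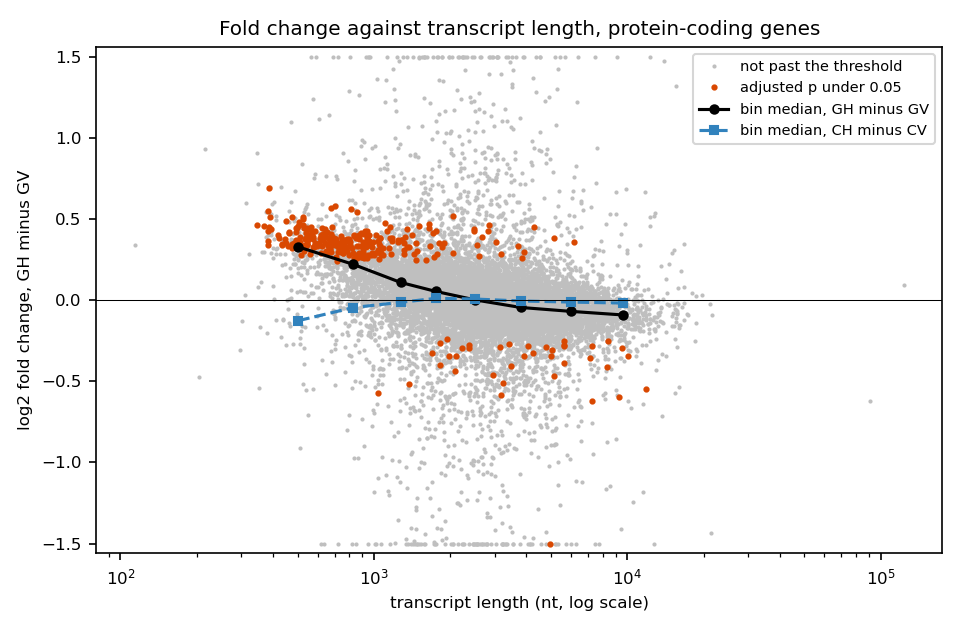
Log2 fold change of GH over GV (vertical axis, values beyond 1.5 drawn at the edge) against transcript length in nt (log scale) for protein-coding genes, with orange points past an adjusted p of 0.05 and lines for the median of each length bin in GH minus GV (black) and CH minus CV (blue). The black line falls from 0.33 in the shortest bin to -0.09 in the longest, and the blue line stays near 0 from 1000 nt on.

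Library by library, the trend belonged to the GV libraries. At 500 nt the fitted log2 deviation from the mean of the 8 libraries was -0.29 in GV1 and -0.14 in GV2, against 0.10 in GH1, 0.07 in GH2 and -0.01 to 0.13 in the C libraries. With each library's trend removed, an alternative chosen after seeing the data, 46 genes were called, 20 higher in GH and 26 higher in GV, of which 27 were also called without the removal. Ribosomal protein calls went from 63 to 3 and their median from 0.36 to 0.12, nuclear respiratory calls from 29 to 1, and histone calls from 5 to 0 with a median of 0.22. Scarna13 (0.62), Snora73a (1.30), Cadm2 (-0.48), Negr1 (-0.46), Slc1a2 (-0.36), ND4 (-0.61) and ND5 (-0.44) stayed past the threshold. Rpl41 (0.19), H2bc18 (0.23), Sod1 (0.11) and Id3 (0.27) did not. Nor did Rn7sk (0.44), Bc1 (0.28) and ND2 (-0.72), or Lrrc4c (-0.37), Flrt2 (-0.40), Epha5 (-0.28) and Cntn1 (-0.21) of the adhesion list. Other genes higher in GV that lost it were Kcnq3 (-0.44), Syn3 (-0.55), Neto1 (-0.32), Pde5a (-0.54), Hlf (-0.31) and Mapt (-0.30), while Nptxr (-4.08) kept it. The removal takes out any change that short genes share, whatever its source, and the part of length in the result was not tested further.

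**Figure D4:**
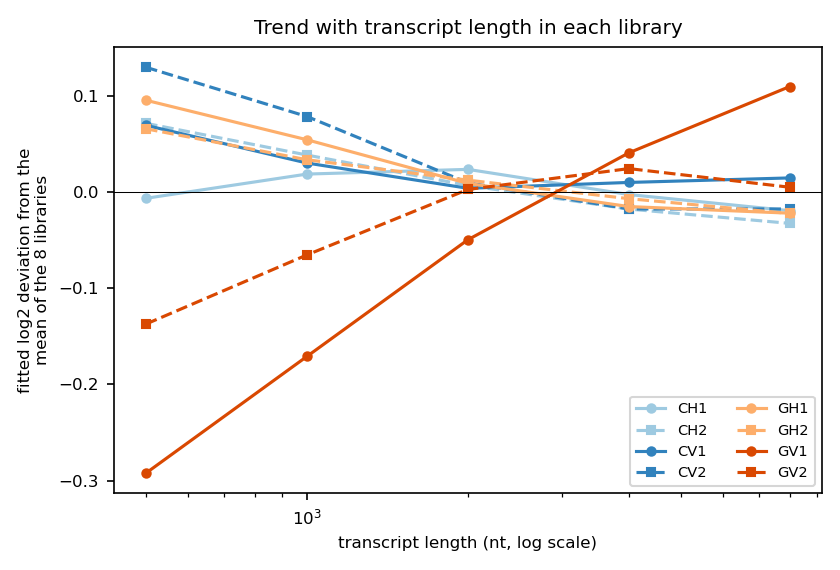
Fitted log2 deviation of each library from the mean of the 8 libraries (vertical axis) against transcript length in nt (log scale), with a line per library. GV1 and GV2 start at -0.29 and -0.14 at 500 nt, below the other 6 libraries, which start between -0.01 and 0.13.

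H against V in the C libraries gave more calls: 2080 genes, 11.8% of those tested, with 1119 (6.34%) higher in CH and 961 (5.45%) higher in CV. Of the 343 genes called between GH and GV, 49 were also called between CH and CV, which is 14.3% of the first list and 2.36% of the second, and 17 of the 49 went the same way. The difference between the G and the C comparison passed the test of the interaction at 1503 genes (8.52%), above 0 at 779 (4.42%) and below 0 at 724 (4.10%). Of the 343, 258 passed it, a description only, since the difference that chose them is a term of the interaction. Scarna13 differed between the comparisons by 1.0 on the log2 scale (adjusted p = 0.00204), Rpl41 by 0.62 (adjusted p = 0.0016), H2bc18 by 0.68 (adjusted p = 0.0121) and ND4 by -0.78 (adjusted p = 0.00771). For Slc1a2 (0.03, adjusted p = 0.884) and Id3 (0.02, adjusted p = 0.913) the interaction did not pass.

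Genes with the strongest H against V difference in the C libraries had medians near 0 in the G libraries. Of the genes called between CH and CV with at least a 2-fold change, 44 were higher in CH. These had a median log2 fold change of 0.10 in G, from -0.96 to 1.01. The 31 higher in CV had a median of -0.03, from -0.56 to 0.52. None of the 75 passed between GH and GV, where 1.94% of all genes did, so 0 is not unusual. The interaction passed at 34 of them, and the others were not shown to differ between G and C. Since the C difference chose these genes, the interaction count is a description. Hbegf, a growth factor that binds heparin, stood at 95.5 and 93.6 CPM in GH and 87.3 and 87.7 CPM in GV, and at 139 and 132 CPM in CH and 66.6 and 66.0 CPM in CV. The G difference was 0.11 ± 0.06 (SE; adjusted p = 0.38). Sdc4, a heparan sulfate proteoglycan, gave 0.12 ± 0.06 (SE; adjusted p = 0.354) in G against 1.02 in C. Crispld2, Tm4sf1 and Akap12, a kinase anchoring protein, gave 0.08, 0.36 and 0.19 in G against 2.07, 2.06 and 1.12 in C. Kitl, the ligand of the receptor Kit, stood at 617 to 630 CPM in all 4 G libraries and gave 0.01 in G against 0.79 in C. These 6 genes were named for their small interaction p-values, so that they passed it is no finding.

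**Figure D5:**
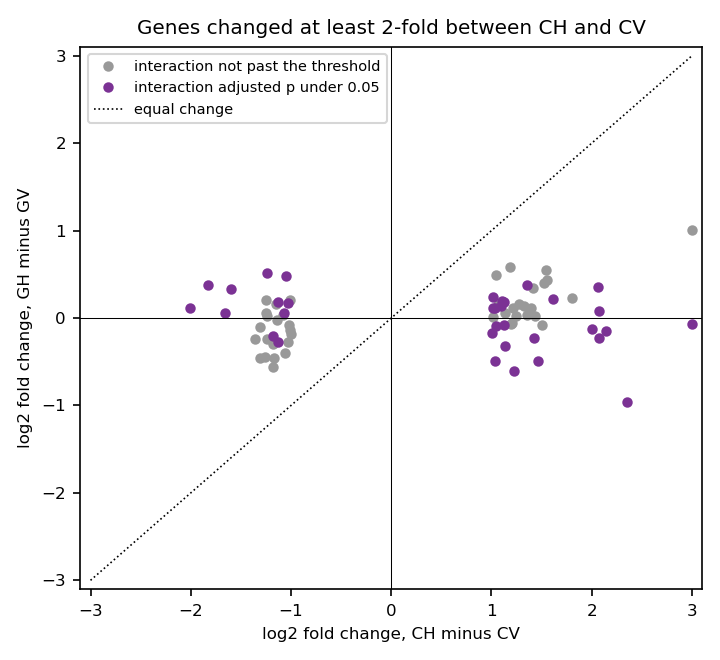
Log2 fold change of GH over GV (vertical axis) against that of CH over CV (horizontal axis, 2 genes beyond 3 drawn at the edge) for the 75 genes changed at least 2-fold between CH and CV, with purple points past the interaction and a dotted line for equal change. Most points lie near 0 on the vertical axis, with medians of 0.10 for genes higher in CH and -0.03 for genes higher in CV.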

How the data were processed

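Per the labels' protocols, the 8 libraries were stranded and made from total RNA depleted of ribosomal RNA. The submitters' processing notes list, with no order, HISAT2 2.1.0, StringTie 2.1.3b, bcl2fastq 2.20.0 and Trimmomatic, and the build GRCm38, also called mm10. The deposited table gives a read count for every gene in each library, per the file headers. The 16 columns of FPKM and TPM were not used, and the authors' filters are not given in the sources. Codes were mapped to genotype only: C to control, G by elimination.

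All 8 libraries were fitted in edgeR 4.0.16 (R 4.3.3) with TMM scaling, filterByExpr and 4 groups of 2, which share 4 residual degrees of freedom, and tested with the quasi-likelihood test. The script was tested on simulated data. CPM values are TMM-scaled. Transcript length is the median over basic protein-coding transcripts of GENCODE where there are any. Alternatives used DESeq2 1.42.0, limma 3.58.1, other scalings and filters, and each library left out. Named genes are the S1P receptors, the 15 largest differences each way at 1 CPM or more, the leading members of each list and the 10 smallest interaction p-values. The members and lists were chosen with earlier results of these data known, and the lists called added were chosen after values were seen.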

Additional observations from a re-analysis of the deposited data

Results flagged for a closer look

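Of 139 genes named by rule, 67 differed between H minus V in the G libraries and H minus V in the C libraries. This was by edgeR's test of the interaction at an adjusted p under 0.05, which 8.52% of all genes tested passed. Many were chosen by the G difference, a term of the interaction, or by the interaction itself. The count is therefore a description only. The values in brackets are the difference between the comparisons on the log2 scale, G minus C. Among small and noncoding RNAs and pseudogenes, it was above 0 for Gm14230 (9.65), Snora73a (2.03), LOC115489055 (1.49), Scarna13 (1.0), Rps16-ps2 (0.95), Rps10-ps2 (0.86), Rn7sk (0.80), Rn7s1 (0.73), Rn7s2 (0.73) and Bc1 (0.62). Among ribosomal proteins it was above 0 for Rplp2 (0.78), Rpl41 (0.62), Rps29 (0.58), Rps10 (0.58), Mrps18b (0.53), Mrpl53 (0.46), Mrpl20 (0.44) and Mrpl42 (0.34). Respiratory subunits above 0 were Ndufa2 (0.60), Uqcr11 (0.55), Atp5g1 (0.54) and Ndufa11 (0.51). Sm proteins and proteasome subunits above 0 were Snrpf (0.62), Snrpd2 (0.56), Snrpc (0.55), Snrpg (0.49), Psmb6 (0.42) and Psmb3 (0.36). Histones above 0 were H2bc1 (1.30), H2ac18 (0.73), H2bc4 (0.69), H2bc18 (0.68), H1f1 (0.57) and H1f5 (0.46). Other genes above 0 were Dctpp1 (0.84), Tmem160 (0.64), Znrd2 (0.60), Sod1 (0.45) and Gpx4 (0.43).

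For some genes above 0 the difference lay mainly in the C libraries, where V was higher: Apoe (0.52), Fasn (0.48), Thy1 (0.47), Cspg4 (0.46), Olig1 (0.44), Notch1 (0.40), Mapt (0.38) and Olig2 (0.25). The difference was below 0 for neuronal and mitochondrial genes higher in GV, Nptxr (-3.68), ND4 (-0.78), ND2 (-0.75), ND5 (-0.64), Flrt2 (-0.63), Cadm2 (-0.46), Negr1 (-0.44) and Cntn1 (-0.32), and for Papolg (-0.85) and Itgb8 (-0.37). It was also below 0 for genes higher in CH than in CV and not called in G: Gm36559 (-10.47), Crispld2 (-1.99), Tm4sf1 (-1.70), Mfap3l (-0.94), Akap12 (-0.93), Hbegf (-0.92), Sdc4 (-0.90), Kitl (-0.78), Gnai3 (-0.35) and Asah1 (-0.33). Gm36559 was at 0 in both CV libraries and Gm14230 at 0 in both GV libraries, so their fitted values depend on the prior count and are no bound.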

How the results depend on the processing

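Against the 343 genes called between GH and GV (302 higher in GH, 41 higher in GV), DESeq2 called 532, with 138 higher in GV, and 338 of the 343 were among them. Without a filter on low counts the numbers were 524 and 144, and with at least 1 CPM in 4 libraries 607, 502 higher in GH and 105 higher in GV. Upper-quartile scaling gave 196 higher in GH, and scaling from long protein-coding genes gave 24 higher in GV. The 4 G libraries alone gave 195, 157 of them higher in GH. Removing the length trend gave 46, 20 and 26. Leaving out 1 library gave 3 to 877 genes, 2 to 646 higher in GH and 1 to 231 higher in GV. For the interaction (1503) this range was 145 to 1659, and for CH against CV (2080) it was 397 to 2255; a group left with 1 sample was assumed to vary like the others.

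With a replicate block the calls were 142, of which 129 higher in GH and 13 higher in GV, and 758 for the interaction and 1368 for CH against CV. Same-numbered samples did not deviate together (correlations of -0.08 to 0.14), so the numbers were not taken as pairs. Of 68 named genes called, Scarna13 and Gm14230 kept an adjusted p under 0.05 in all 18 alternatives, and the other 66 lost it when at least 1 library was left out. No named gene that was called reversed direction. The cause of these shifts was not tested. With 2 libraries a group, differences of a few hundredths on the log2 scale cannot be resolved.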
